A study of Mus musculus with 17 samples.

Results

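Interferon-stimulated genes were examined in bulk bone marrow RNA of C57BL/6 mice that had acute myeloid leukaemia (AML). The 45 genes were taken by symbol from a list of the interferon response, and all 45 were found among the 56305 gene identifiers of both count tables. Of these, 41 passed the filter on low counts and were tested, among 16666 genes tested in all. The groups were Mt1ko (9 libraries, summed by the authors into the 3 samples 4-6, 10-12 and 16-18), in which CRISPR-Cas9 had been used to knock down Mt1, and control (8 libraries, summed into the 3 samples 1-3, 7-9 and 14-15). Both groups carried Dnmt3aR878H/+;Npm1cA/+, a heterozygous point mutation of a DNA methyltransferase gene together with a heterozygous allele of the nucleophosmin gene. Mt1 encodes metallothionein 1, a small protein that binds zinc and copper. The titles call each library a technical replicate, and the sources used here do not give the number, age or pooling of the mice, the guide used or the treatment of the control. The p-values therefore measure only how far these samples spread, and that spread may be technical.

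Interferons are secreted proteins that warn cells of infection. Type I interferons bind the receptor pair IFNAR1 and IFNAR2, and the kinases JAK1 and TYK2 then activate a complex that holds STAT2 and IRF9 and binds the interferon-stimulated response element (ISRE) in target promoters. Interferon gamma acts through its own receptor, JAK1 and JAK2, and its signal reaches promoters at the gamma-activated site (GAS). The targets sense foreign nucleic acid, block viral replication, attack microbes inside the cell and prepare peptides for display to T cells, and myeloid cells keep many of them at a basal level without infection.

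The targeted gene was checked first. Mt1 had 41.8 to 87.2 CPM (the gene's counts scaled to the library's total) in 8 of the 9 libraries labelled Mt1ko and 326.2 CPM in the library labelled Mt1ko with number 6, against 347.5 to 471.3 CPM in the 8 control libraries. Library 6 thus went against its label, and directions drawn from sample Mt1ko 4-6 carry that limit. Libraries held 27124722 to 38645072 counts and summed samples 64247249 to 106407001. Libraries 10 to 12, the parts of sample Mt1ko 10-12, stood apart: 21.9% to 30.2% of their counts were mitochondrial ribosomal RNA, against 4.58% to 11.2% in the other 14 libraries. They held 22 to 30 of the 45 genes with at least 1 count, against 31 to 41 genes in the others.

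Promoter sequences are shown first for 5 of the genes, because the ISRE and GAS are the sites through which the pathway is known to act. Igtp was the gene with the smallest p between the groups, Gbp7 and Oas1a are well-expressed members of the GTPase and OAS families, and Isg15 and Ifit1 are classical targets that were scarce here. Each is the stretch of 150 bases that ends just before the gene's RefSeq start, 5′ to 3′ on the gene's strand, from the RefSeq promoters of build GRCm38.p6. Capitals mark matches to GAAANNGAA or its reverse complement TTCNNTTTC (the core of the ISRE) and to TTCNNNGAA (the GAS, its own reverse complement).
Igtp, chr11:58199406-58199555, plus strand: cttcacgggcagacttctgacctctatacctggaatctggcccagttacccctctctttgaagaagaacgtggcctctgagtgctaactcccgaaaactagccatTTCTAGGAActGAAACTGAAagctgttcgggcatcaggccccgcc
Gbp7, chr3:142530186-142530335, plus strand: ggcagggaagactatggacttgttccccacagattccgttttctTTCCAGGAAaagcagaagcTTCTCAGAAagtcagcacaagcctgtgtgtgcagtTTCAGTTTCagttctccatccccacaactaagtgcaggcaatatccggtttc
Oas1a, chr5:120907526-120907675, minus strand: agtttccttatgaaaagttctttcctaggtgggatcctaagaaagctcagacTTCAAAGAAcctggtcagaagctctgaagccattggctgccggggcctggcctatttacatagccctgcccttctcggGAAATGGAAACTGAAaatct
Isg15, chr4:156200819-156200968, minus strand: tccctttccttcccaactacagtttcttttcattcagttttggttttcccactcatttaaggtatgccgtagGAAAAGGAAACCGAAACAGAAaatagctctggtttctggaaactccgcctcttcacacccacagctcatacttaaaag
Ifit1, chr19:34640739-34640888, plus strand: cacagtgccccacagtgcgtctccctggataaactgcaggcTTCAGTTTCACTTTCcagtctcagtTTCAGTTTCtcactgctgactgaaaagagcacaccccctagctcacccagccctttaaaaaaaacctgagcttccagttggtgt

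In Igtp the GAS match begins 45 bases and the ISRE match 34 bases before the start, with a gap of only a few bases between them. Gbp7 holds GAS matches that begin 106 and 87 bases and an ISRE match that begins 52 bases before its start. Oas1a has overlapping ISRE matches close to its start and a GAS match 98 bases before it. Isg15 and Ifit1 hold ISRE matches only, 3 each, which overlap in Isg15 at 78, 72 and 66 bases before the start, and which begin 109, 103 and 84 bases before it in Ifit1.

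Promoters were found for 35 of the 45 genes, as 43 windows of 300 bases (250 before to 50 after a start), since some genes have several starts. The ISRE core stood in 21 of these windows (48.8%), against 8.56% of all 32851 promoter windows. The GAS stood in 10 (23.3%), against 8.3% of all windows. Counted by gene, 20 of 35 had an ISRE match, 10 a GAS match, 5 both and 10 neither. The motifs overlapped each other in 1 window of the 43, that of Bst2, and in 54 of all windows. ISRE matches were present in 10 of 21 windows of genes that averaged 10 CPM or more (47.6%), in 5 of 15 windows of genes at 1 to 10 CPM (33.3%), and in 6 of 7 windows of genes that averaged under 1 CPM (85.7%). These 7 windows include those of Ifit3 and Ifit3b, which are nearly the same sequence and are not independent. The matches are letters in these windows only, and binding was not measured. No promoter was found for Dhx58, Ifi27l2a, Iigp1, Mx1, Mx2, Oas2, Parp14, Rtp4, Usp18 and Zbp1, so these were not searched for motifs.

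The genes were expressed at very different levels. By CPM, 18 averaged 10 or more over the 6 samples, 16 averaged 1 to 10, and 11 averaged under 1. Iigp1, an immunity-related GTPase, and Ifi44 had 0 counts in every library. A count of 0 allows up to 0.0281 to 0.0445 CPM in a summed sample. This limit is 3 counts of the sample's total after TMM scaling, a normalization between samples, and covers counting error only. Per kilobase of exon, the antigen processing genes had the highest median of the roles, at 11.3 CPM per kilobase, and Psmb8 was the highest gene, at 18.3 CPM per kilobase. The sensors had a median of 2.39, the transcription factors of 3.32 and the GTPases of 2.63 CPM per kilobase. The IFIT genes had a median of 0.301 CPM per kilobase and the chemokine Cxcl10 0.178 CPM per kilobase. The marrow thus held abundant transcripts of some interferon targets and almost none of others, in both groups.

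**Figure D1:**
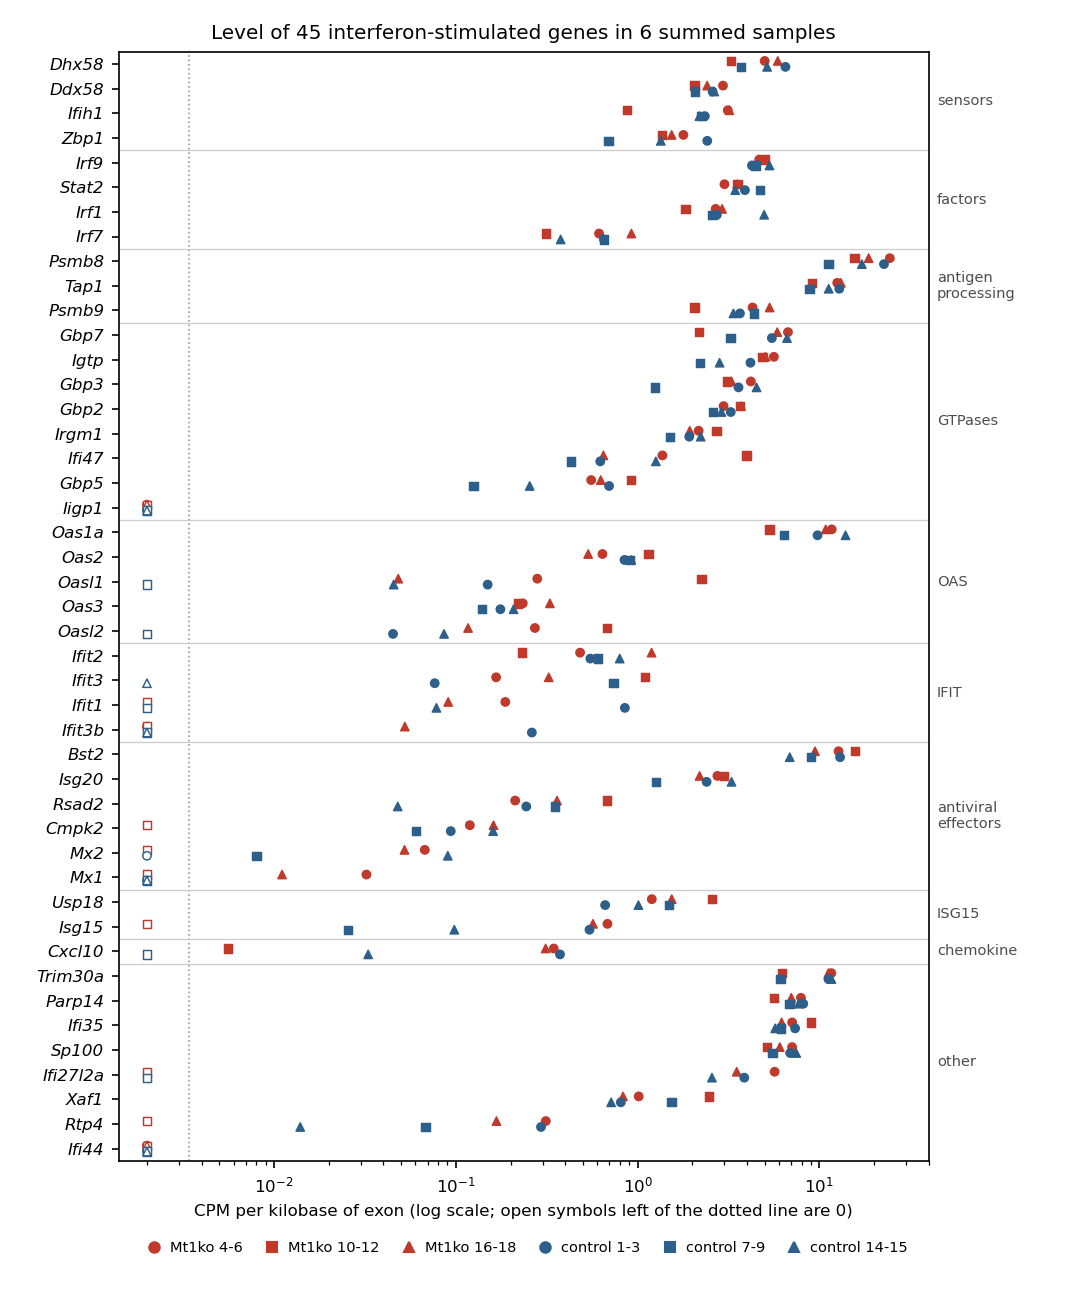
Level of each of the 45 genes in each summed sample, in CPM per kilobase of exon on a log scale, ordered by role, with Mt1ko samples in red and control samples in blue; open symbols left of the dotted line are samples with 0 counts. Psmb8, Tap1, Bst2 and Trim30a lie at the right in every sample, while the IFIT genes, Isg15, Rsad2 and Cxcl10 lie at the left and spread widely between samples of a group.

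Between Mt1ko and control, no interferon-stimulated gene passed the test. At an adjusted p under 0.05 (edgeR quasi-likelihood test, Benjamini-Hochberg over all genes), 0 of 41 genes were called, against 0% of all 16666 genes. The targeted gene Mt1 was itself not called by this fit, with a log2 fold change of -1.85 (SE 0.34, edgeR unadjusted p = 0.00075). Its means were 106.8 CPM in Mt1ko and 384.2 CPM in control. The lack of a call therefore does not show that a gene was unchanged. DESeq2 also called 0 of the 41, and with the 17 libraries entered singly edgeR called 0 of 33, against 0.00707% of all 14135 genes, which was 1 gene, Mt1. At an unadjusted p under 0.05, edgeR gave 1 of the 41, Igtp, against 1.03% of all genes. The edgeR adjusted p was 1.00 for every gene described here, so it is not repeated, and differences are given as values. Fold changes were above 0 in 30 of the 41 and below 0 in 11, with a median log2 fold change of 0.19. Of all tested genes, 48.3% had a fold change above 0, and their median was -0.01. The 45 genes together held 632.0, 480.4 and 589.3 CPM in the Mt1ko samples 4-6, 10-12 and 16-18, against 606.6, 444.3 and 585.6 CPM in the control samples 1-3, 7-9 and 14-15. The means were 567.2 ± 78.2 CPM in Mt1ko and 545.5 ± 88.3 CPM in control (SD, n = 3 each), a difference smaller than the spread in either group. In bulk RNA, fewer cells of a type and less RNA per cell cannot be told apart.

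By level, the genes above 0 were distributed as follows. Of the 18 genes that averaged 10 CPM or more, 11 were higher and 7 lower, with a median log2 fold change of 0.03, and 51.4% of all 8203 genes at that level were higher. For 13 of these 18 the 95% interval stayed within 1 log2 unit of 0, against 86.7% of all genes at that level. Of the 16 genes at 1 to 10 CPM, 14 were higher and 2 lower, with a median of 0.55, and 48.5% of all 4777 tested genes at that level were higher. Of the 7 tested genes under 1 CPM, 5 were higher and 2 lower, with a median of 0.35, and 41.1% of all 3686 tested genes at that level were higher. By TMM-scaled CPM the groups did not overlap in 3 of the 41 genes, Igtp, Oas3 and Oasl2, each higher in Mt1ko. Of all tested genes, 7.1% showed no overlap in either direction and 2.74% had every Mt1ko sample above every control sample. Without the TMM scaling (factor 0.852 in Mt1ko 10-12), Mt1ko 10-12 fell below the highest control sample in Igtp and in Oas3.

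**Figure D2:**
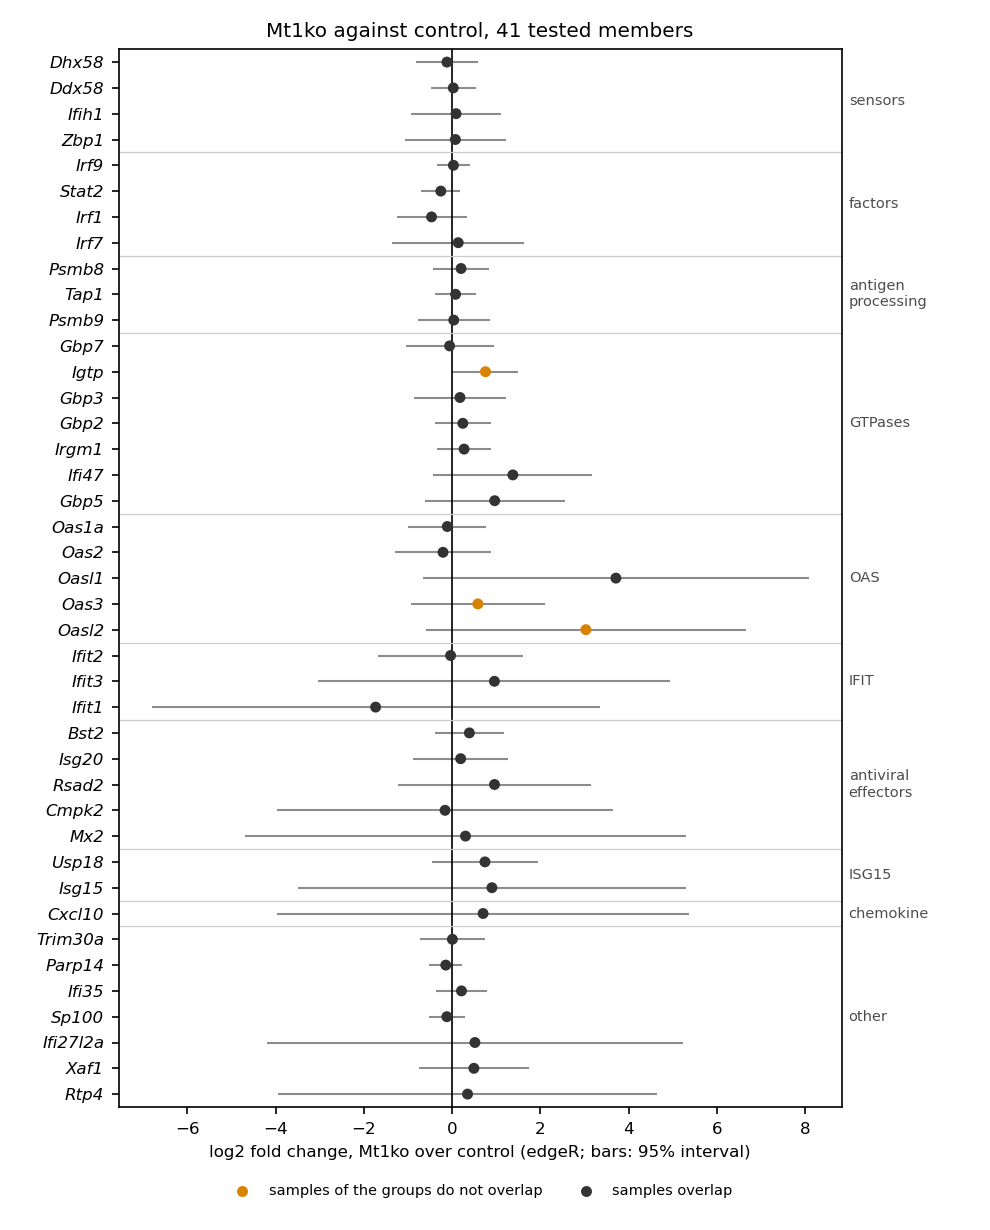
The log2 fold change of each of the 41 tested genes, Mt1ko over control, with its 95% interval from edgeR, ordered by role. Orange marks the 3 genes whose TMM-scaled samples do not overlap between the groups. The interval of Igtp begins just above 0, all others include 0, and the intervals of scarce genes such as Ifit1 and Oasl1 span several log2 units.

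The sensors of foreign nucleic acid did not separate the groups. Ifih1, which encodes MDA5, a cytoplasmic receptor of long double-stranded RNA, had 25.6, 7.17 and 26.1 CPM in Mt1ko samples 4-6, 10-12 and 16-18, against 19.1, 18.4 and 17.9 CPM in control samples 1-3, 7-9 and 14-15. The control samples lay close together, and the Mt1ko samples lay on both sides of them. Its log2 fold change was 0.09 (SE 0.44), and without sample 10-12 it was 0.49 with an unadjusted edgeR p of 0.0129, while its adjusted p was 1.00. Ddx58, which encodes RIG-I, a receptor of viral RNA ends, had 20.8, 14.5 and 17.0 CPM in Mt1ko, against 18.2, 14.6 and 18.6 CPM in control. Its groups overlapped throughout, with a log2 fold change of 0.03 (SE 0.22) that was -0.049 with library 6 left out. The other sensors were Dhx58, which encodes the regulator LGP2, with a log2 fold change of -0.12, and Zbp1, a sensor of Z-form nucleic acid that can trigger cell death, with 0.07.

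Among the 4 transcription factors of the 45 genes, Irf9 varied least. Irf9, the DNA-binding partner of STAT2, had 25.1, 27.0 and 24.9 CPM in Mt1ko, against 22.9, 24.0 and 28.6 CPM in control. Its highest sample was 1.25 times its lowest, the smallest such ratio of the 18 genes at 10 CPM or more. Its log2 fold change of 0.03 (SE 0.16) had a 95% interval of -0.35 to 0.41. Stat2, the subunit that carries the activation domain, had 17.8, 21.0 and 20.9 CPM in Mt1ko, against 23.1, 27.9 and 20.4 CPM in control. Only the control sample 14-15 lay within the Mt1ko range, and the log2 fold change was -0.26 (SE 0.19). Irf1, a factor that interferon gamma induces strongly, had 10.7, 7.28 and 11.6 CPM in Mt1ko, against 10.9, 10.3 and 19.8 CPM in control. Control sample 14-15 was well above the rest, and the log2 fold change of -0.47 (SE 0.34) was -0.10 without it. Irf7, which amplifies type I interferon production, was scarce, with a log2 fold change of 0.14.

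Antigen processing held the most abundant of the genes per length. Psmb8, a catalytic subunit of the immunoproteasome, had 82.6, 52.7 and 63.1 CPM in Mt1ko, against 76.6, 37.9 and 57.9 CPM in control. Its groups overlapped, and its log2 fold change of 0.20 (SE 0.27) was -0.024 without control sample 7-9. Tap1, a subunit of the transporter that carries peptides into the endoplasmic reticulum, had 68.7, 49.9 and 71.9 CPM in Mt1ko, against 70.5, 48.4 and 61.6 CPM in control. The lowest sample of each group was nearly equal, and the log2 fold change of 0.08 (SE 0.20) had a 95% interval of -0.38 to 0.54. Psmb9, another immunoproteasome subunit, had a log2 fold change of 0.04. Psmb9, Tap1 and Psmb8 are neighbours on chromosome 17, where Psmb9 and Tap1 lie on opposite strands with starts 211 bases apart and share 212 exonic bases in the GENCODE annotation. Psmb8 shares 498 exonic bases with Gm20496 on the other strand. The sources used here do not give the strand setting of the counting, so reads of such overlaps may have been counted for either gene.

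Among the guanylate-binding and immunity-related GTPases, which attack the vacuoles of intracellular microbes, 6 of 7 tested genes had a fold change above 0 and 1 below. Igtp (chr11:58199556-58207591 in GRCm38, plus strand, protein-coding), whose promoter stretch holds the adjoining GAS and ISRE matches, encodes an immunity-related GTPase that regulates others of its family. It had 11.4, 9.85 and 10.2 CPM in Mt1ko, against 8.45, 4.46 and 5.71 CPM in control. After TMM scaling all Mt1ko samples were above all control samples, by a narrow margin between Mt1ko 10-12 and control 1-3. That order rested on the TMM factor of 0.852 for Mt1ko 10-12. Without the scaling, Mt1ko 10-12 lay below control 1-3. The means were 10.5 ± 0.80 CPM in Mt1ko and 6.21 ± 2.04 CPM in control (SD, n = 3 each), giving a log2 fold change of 0.75 (SE 0.32) with a 95% interval of 0.0077 to 1.501 (edgeR unadjusted p = 0.0482, adjusted p = 1.00). On leaving out each summed sample in turn it ranged from 0.57 to 1.04, always above 0. The unadjusted p was under 0.05 in 6 of 16 alternative fits and at or above it in 10, from 0.0236 to 0.23 (edgeR, and DESeq2 in 1 of them), and with library 6 left out it was 0.0587.

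In the 9 Mt1ko libraries Igtp ranged from 0 to 15.6 CPM with a median of 11.9, and in the 8 control libraries from 1.80 to 9.64 CPM with a median of 7.63. Library 12 held 0 counts of it, while libraries 10 and 11 of the same sample held 12.8 and 11.9 CPM. By the second index sequence of the libraries, Igtp averaged 11.4 CPM in 3 Mt1ko libraries and 7.59 CPM in 5 control libraries with index 1. With index 2 it averaged 10.1 CPM in 4 Mt1ko libraries and 4.53 CPM in 3 control libraries. Index 3 was carried by 2 Mt1ko libraries only, at 8.36 CPM. Igtp shares 162 exonic bases with Irgm2 on the same strand, and the family's members are alike in sequence, so its counts are uncertain to that extent.

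Gbp7 had 37.7, 12.2 and 32.9 CPM in Mt1ko, against 30.8, 18.2 and 37.3 CPM in control. It was the most abundant of the guanylate-binding proteins examined per length, at 5.02 CPM per kilobase, and samples Mt1ko 10-12 and control 7-9 were its lowest, with a log2 fold change of -0.06 (SE 0.43). Irgm1, a regulator of autophagy and of other GTPases, had 12.6, 15.8 and 11.3 CPM in Mt1ko, against 11.2, 8.77 and 12.9 CPM in control. The groups overlapped, and the log2 fold change was 0.27 (SE 0.26). Gbp5, which promotes inflammasome assembly, had 3.69, 6.10 and 4.16 CPM in Mt1ko, against 4.62, 0.831 and 1.69 CPM in control. Only control sample 1-3 reached the Mt1ko range, and the log2 fold change was 0.96 (SE 0.68). Ifi47, a further GTPase of the family, had 3.39, 9.84 and 1.60 CPM in Mt1ko, against 1.54, 1.06 and 3.12 CPM in control. Library 11 alone held 41.2% of its CPM over all libraries, and its log2 fold change of 1.37 (SE 0.78) was 0.39 without Mt1ko 10-12.

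The OAS enzymes make oligoadenylates that activate the nuclease RNase L. Oas1a, the most abundant of them here, had 22.04, 10.0 and 20.4 CPM in Mt1ko, against 18.4, 12.0 and 26.3 CPM in control. Samples Mt1ko 10-12 and control 7-9 were again lowest, and the log2 fold change was -0.11 (SE 0.38). Oas2 had 2.85, 5.11 and 2.38 CPM in Mt1ko, against 3.77, 4.05 and 4.11 CPM in control, with a log2 fold change of -0.21 (SE 0.47). Oas3 had 1.65, 1.56 and 2.33 CPM in Mt1ko, against 1.24, 0.986 and 1.47 CPM in control. After TMM scaling its Mt1ko samples were all above its control samples by a small margin, with a log2 fold change of 0.58 (SE 0.66). On leaving out each summed sample in turn it ranged from 0.38 to 0.73. Without the scaling, Mt1ko 10-12 fell below the highest control sample. All 124 counts of Oas3 in Mt1ko 10-12 came from library 10, and libraries 11 and 12 had 0. By single libraries its median was lower in Mt1ko (0.932 CPM) than in control (1.10 CPM).

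The largest fold changes of the 41 genes belonged to Oasl1 and Oasl2, relatives of the OAS enzymes, and each turned on few libraries. Oasl1, known in mice to limit translation of Irf7, had 0.732, 5.86 and 0.126 CPM in Mt1ko, against 0.391, 0 and 0.119 CPM in control. Library 10 alone held 80.1% of its CPM over all libraries. Its log2 fold change of 3.71 (SE 1.88) had a 95% interval of -0.66 to 8.07, and without Mt1ko 10-12 it was 1.32. Oasl2 had 1.74, 4.34 and 0.745 CPM in Mt1ko, against 0.288, 0 and 0.549 CPM in control. Its groups did not overlap, but library 11 held 51.8% of its CPM, and 3 of the 8 control libraries had any count. All 345 counts of Oasl2 in Mt1ko 10-12 came from library 11, and libraries 10 and 12 had 0. The log2 fold change was 3.03 (SE 1.56), with a 95% interval of -0.59 to 6.64.

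**Figure D3:**
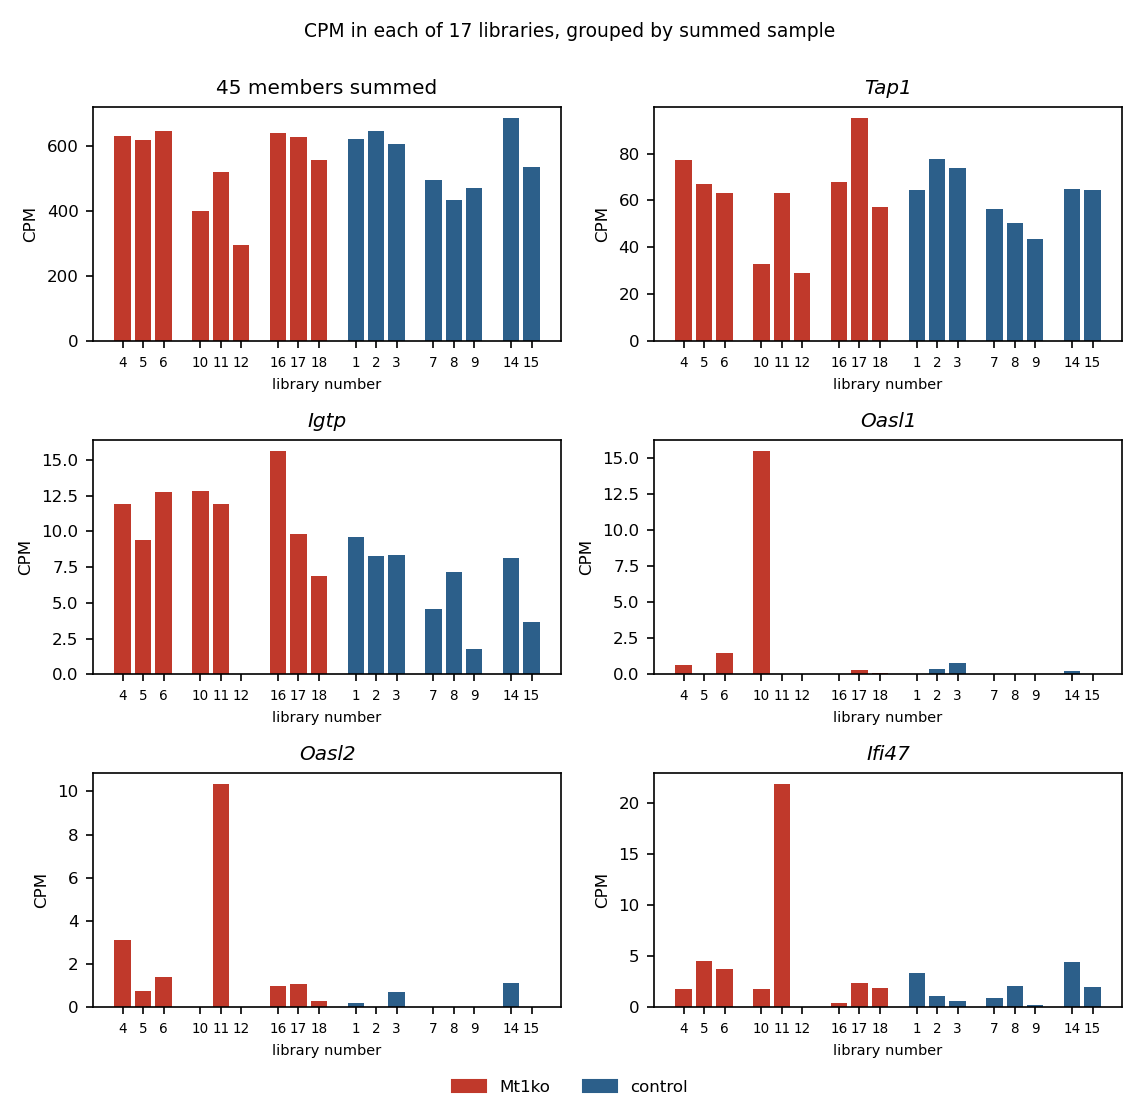
CPM in each of the 17 libraries, grouped by summed sample with Mt1ko in red on the left and control in blue on the right, for the 45 genes summed and for Tap1, Igtp, Oasl1, Oasl2 and Ifi47. The summed level and Tap1 fill every library, Igtp is at 0 in library 12, and single libraries (10 for Oasl1, 11 for Oasl2 and Ifi47) carry much of the Mt1ko level of the scarce genes.

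The IFIT genes, whose family includes proteins that bind viral RNA lacking the marks of the host's own, were scarce in both groups. Ifit1, whose promoter stretch holds 3 ISRE matches, had 0.497, 0 and 0.241 CPM in Mt1ko, against 2.26, 0 and 0.208 CPM in control. Sample Mt1ko 10-12 and control 7-9 had no count, and control 1-3 held most of the rest. The log2 fold change was -1.73 (SE 2.18), and without control 1-3 it was 1.25. Ifit2 had 1.90, 0.906 and 4.69 CPM in Mt1ko, against 2.16, 2.39 and 3.13 CPM in control, with the control samples inside the Mt1ko range and a log2 fold change of -0.04 (SE 0.70). Ifit3 had 0.291, 1.91 and 0.566 CPM in Mt1ko, against 0.134, 1.29 and 0 CPM in control, with a log2 fold change of 0.96 (SE 1.72). Ifit3b, a near copy of Ifit3, had 61 counts in all and was not tested, and reads of the pair may have been split between them.

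Direct antiviral effectors were mostly scarce, with Bst2 as the exception. Bst2 encodes tetherin, which holds budding virions at the cell surface. It had 11.5, 14.2 and 8.55 CPM in Mt1ko, against 11.7, 8.15 and 6.20 CPM in control. The groups overlapped, with a log2 fold change of 0.39 (SE 0.33). Isg20, an RNA exonuclease, had 5.11, 5.57 and 4.08 CPM in Mt1ko, against 4.46, 2.35 and 6.12 CPM in control, with a log2 fold change of 0.19 (SE 0.46). Its Mt1ko samples lay inside the control range.

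Rsad2, which encodes viperin, an enzyme that makes a chain-terminating nucleotide, had 0.920, 2.94 and 1.56 CPM in Mt1ko, against 1.06, 1.52 and 0.208 CPM in control. The groups overlapped, with a log2 fold change of 0.96 (SE 0.94). Its divergent neighbour Cmpk2, a mitochondrial nucleotide kinase, had 0.497, 0 and 0.671 CPM in Mt1ko, against 0.391, 0.251 and 0.668 CPM in control, with a log2 fold change of -0.16 (SE 1.64). Mx1 had 17 counts in 3 libraries, all Mt1ko, and was not tested. C57BL/6 mice are known to carry defective Mx genes, and the annotation lists Mx2 as a polymorphic pseudogene. Mx2 had 69 counts.

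The ubiquitin-like protein of Isg15 is attached to new proteins during infection, and Usp18 removes it and also dampens the type I receptor. Isg15 had 0.516, 0 and 0.430 CPM in Mt1ko, against 0.411, 0.0193 and 0.0742 CPM in control. It is small and often among the most induced targets, yet it held 143 counts over all 17 libraries, and 9 libraries had any. With so few counts, the log2 fold change of 0.90 had an SE of 1.90. Usp18 had 3.34, 7.16 and 4.30 CPM in Mt1ko, against 1.85, 4.16 and 2.82 CPM in control. Only control 7-9 lay within the Mt1ko range, and the log2 fold change was 0.74 (SE 0.52). Cxcl10, a chemokine that draws activated T cells, had 0.779, 0.0126 and 0.703 CPM in Mt1ko, against 0.843, 0 and 0.0742 CPM in control. It was at or near 0 in samples of both groups, with a log2 fold change of 0.70 (SE 2.01).

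Of the 8 remaining genes, 7 were tested, with 5 above 0 and 2 below. Parp14, an ADP-ribosyltransferase of macrophages, had 73.7, 52.3 and 65.2 CPM in Mt1ko, against 75.9, 63.9 and 71.6 CPM in control. Its log2 fold change of -0.14 (SE 0.16) had a 95% interval of -0.52 to 0.23. Sp100, a component of nuclear bodies, had 53.5, 39.0 and 45.8 CPM in Mt1ko, against 52.2, 41.7 and 56.4 CPM in control. In both genes the groups overlapped and Mt1ko 10-12 was the lowest sample, and the log2 fold change of Sp100 was -0.12 (SE 0.18). Trim30a, Ifi35, Xaf1, Rtp4 and Ifi27l2a had log2 fold changes from 0.0053 (Trim30a) to 0.52 (Ifi27l2a).

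Some of the variation ran across the groups. Samples Mt1ko 10-12 and control 7-9 were the 2 lowest samples in 11 of the 18 genes at 10 CPM or more, against 27.9% of all 8203 genes at that level. The 11 were Ddx58, Dhx58, Irf1, Oas1a, Gbp3, Gbp7, Psmb8, Tap1, Trim30a, Parp14 and Sp100. Over the 18 genes, the highest sample was 1.25 (Irf9) to 3.64 (Ifih1) times the lowest, with a median of 1.95. The 45 genes summed were likewise lowest in these samples, at 480.4 CPM in Mt1ko 10-12 and 444.3 CPM in control 7-9, against 585.6 to 632.0 CPM in the other 4. Of the 45 genes, 10 had no count in Mt1ko 10-12 and 9 had none in control 7-9, against 2 to 5 in the others.

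Among single libraries, the summed level ranged from 294.8 CPM in library 12, labelled Mt1ko, to 686.5 CPM in library 14, labelled control. By second index it averaged 632.5 CPM in 3 Mt1ko libraries and 560.5 CPM in 5 control libraries with index 1. With index 2 it averaged 463.8 CPM in 4 Mt1ko libraries, of which 3 are libraries 10 to 12, and 564.5 CPM in 3 control libraries. The order of the groups thus differed between the 2 index sets. Markers of mast cells and basophils summed to 413.0, 5304 and 166.7 CPM in Mt1ko samples 4-6, 10-12 and 16-18, against 239.4, 831.5 and 676.3 CPM in control samples 1-3, 7-9 and 14-15. Of those 12 markers 7 averaged 10 CPM or more and Prss34 was at 0. They were thus highest in the 2 samples with the lowest summed interferon targets, but only Mt1ko 10-12 stood far from the rest. Control 14-15, with 676.3 CPM of these markers, was near control 7-9 yet held 585.6 CPM of the interferon targets. The part of these cells in the levels was not tested, nor was that of mitochondrial ribosomal RNA.

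**Figure D4:**
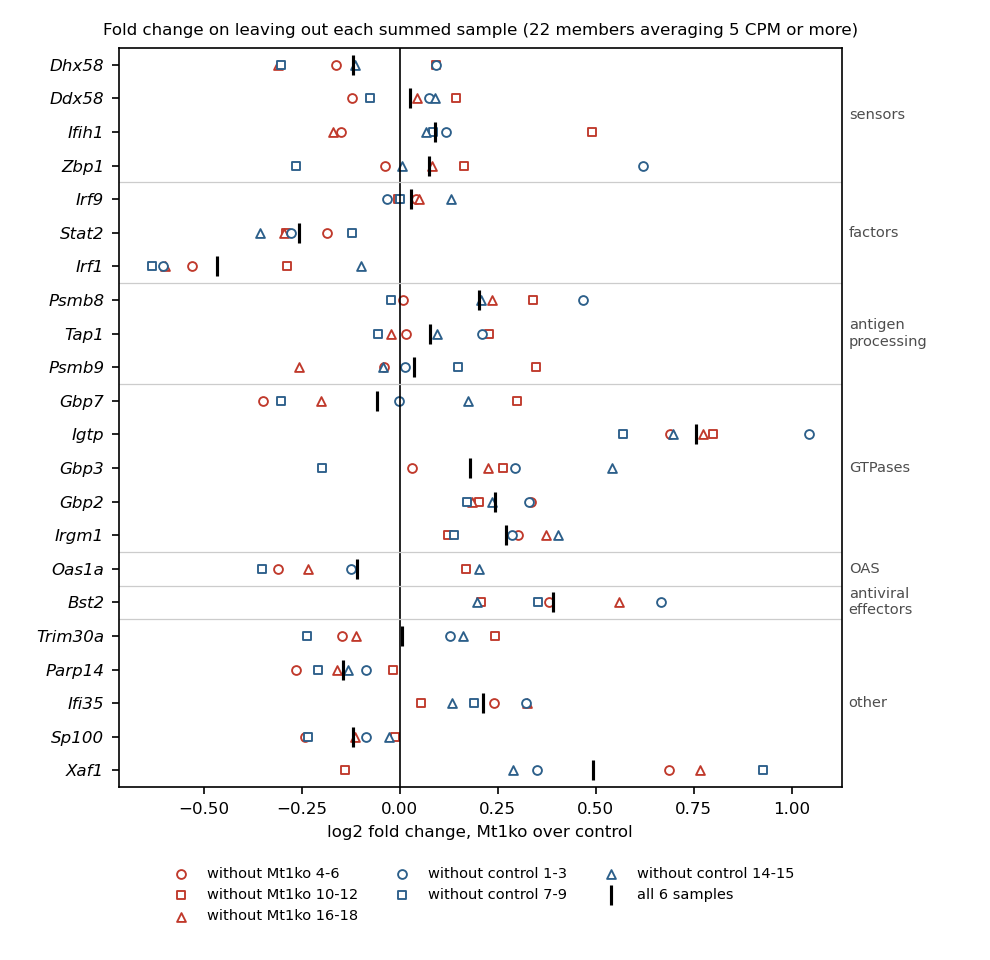
The log2 fold change, Mt1ko over control, of the 22 genes that averaged 5 CPM or more, with all 6 samples (black bar) and with each summed sample left out in turn (red symbols for a Mt1ko sample left out, blue for a control sample). Igtp, Gbp2, Irgm1, Bst2 and Ifi35 stay right of 0 and Stat2, Irf1, Parp14 and Sp100 left of it, while Ifih1, Ddx58, Gbp7, Oas1a and Trim30a fall on both sides.

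The direction of many genes therefore rested on which samples were kept. On leaving out each summed sample in turn, 19 of the 41 genes kept their sign in all 6 fits, 14 above 0 and 5 below, as did 42.2% of all tested genes. Of the 41, 9 changed sign without control 7-9, among them Psmb8, Tap1 and Ddx58, and 8 without Mt1ko 10-12, among them Oas1a, Gbp7 and Irf9. The sign also changed for 9 genes without Mt1ko 4-6, 5 without Mt1ko 16-18, 4 without control 1-3 and 7 without control 14-15. Without control 7-9, 21 of 42 genes were above 0 and the median log2 fold change was -0.012. Without Mt1ko 10-12, 32 of 42 were above 0 and the median was 0.25. With both left out, 27 of 42 were above 0, with a median of 0.11, and 0 were called.

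Scarce genes depended on single libraries. An even share of a gene over 17 libraries is 5.88%. One library held at least 20% of the CPM in 0 of the 18 genes at 10 CPM or more, in 6 of the 16 genes at 1 to 10 CPM, and in all 9 genes under 1 CPM that had any count. These 9 genes had counts in 3 to 11 of the 17 libraries.

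The interferons themselves were nearly undetected, while the receptors of type I interferon and interferon gamma named here were well expressed. Of 21 interferon genes, 18 had 0 counts in every library, among them Ifnb1, the first type I interferon made in many responses, and Ifng, the gene of interferon gamma. The other 3 were Ifnz with 75 counts, Ifna2 with 32 and Ifna4 with 12. Of the 9 receptor and kinase genes, 8 were tested, with 3 above 0 and 5 below and 0 called. The ninth, Ifnlr1, which encodes the receptor chain of the lambda interferons, had 0 counts in every sample. Jak1, the kinase shared by both receptor types, had 429.8, 351.7 and 371.8 CPM in Mt1ko, against 401.9, 363.6 and 388.9 CPM in control. The groups overlapped, with means of 384.4 ± 40.5 CPM in Mt1ko and 384.8 ± 19.5 CPM in control (SD, n = 3 each) and a log2 fold change of -0.0014 (SE 0.13). Ifnar1 had 255.8, 181.1 and 240.9 CPM in Mt1ko, against 233.3, 210.1 and 223.4 CPM in control, with a log2 fold change of 0.02 (SE 0.16). Ifngr1, which binds interferon gamma, had 145.9, 91.7 and 133.3 CPM in Mt1ko, against 155.2, 114.3 and 135.0 CPM in control, with a log2 fold change of -0.13 (SE 0.20). Both receptors were lowest in Mt1ko 10-12, and their groups overlapped.

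Of 7 tested signal transducers and factors outside the 45 genes, 2 were above 0 and 5 below, and 0 were called. The most abundant of the list were Stat3 and Irf5. Stat3, which carries signals of other cytokines, had 213.9, 171.4 and 227.5 CPM in Mt1ko, against 231.8, 202.9 and 235.6 CPM in control, with a log2 fold change of -0.13. Irf5, a factor of inflammatory macrophages, had 166.1, 66.3 and 109.1 CPM in Mt1ko, against 135.6, 102.4 and 114.7 CPM in control, with a log2 fold change of -0.05. In both the groups overlapped. Of 15 listed adaptors and kinases of nucleic acid sensing, Tmem173 and Mb21d1 were not found under those symbols and were not examined. Of the 13 tested, 6 were above 0 and 7 below. Unc93b1, the chaperone of endosomal Toll-like receptors, had 175.8, 131.2 and 173.7 CPM in Mt1ko, against 161.3, 163.7 and 139.9 CPM in control, with a log2 fold change of 0.05. Tbk1, the kinase that activates IRF3, had 136.7, 122.1 and 134.1 CPM in Mt1ko, against 145.6, 125.6 and 129.5 CPM in control, with a log2 fold change of -0.03. These groups overlapped too. Of 16 negative regulators, 8 were above 0 and 8 below.

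Socs3, a cytokine-induced inhibitor of JAK signalling, had 401.4, 125.0 and 335.8 CPM in Mt1ko, against 432.5, 135.9 and 313.9 CPM in control, so that Mt1ko 10-12 and control 7-9 were again far lowest. The log2 fold change of Socs3 was -0.03 (SE 0.50). Ptpn6, a phosphatase of myeloid receptors, had 206.0, 159.3 and 202.3 CPM in Mt1ko, against 209.3, 172.9 and 212.4 CPM in control, with a log2 fold change of -0.07. Of 60 further interferon-stimulated genes, 59 were found by symbol (Mnda was not) and 53 were tested. Of the 53, 32 were above 0 and 21 below, with 0 called and a median log2 fold change of 0.04. The most abundant were B2m, the light chain of MHC class I, with 395.0, 191.9 and 311.3 CPM in Mt1ko, against 384.3, 182.1 and 337.6 CPM in control, and Ifi209, of the family that senses DNA, with 324.0, 91.2 and 263.0 CPM in Mt1ko, against 311.7, 80.2 and 298.8 CPM in control. Both were lowest in the same 2 samples, and their log2 fold changes were -0.01 and -0.03. Psme2, a subunit of the proteasome activator, chosen after its values were seen as the 1 gene of that list with an unadjusted p under 0.05, had 33.6, 48.9 and 29.9 CPM in Mt1ko, against 24.1, 21.5 and 28.2 CPM in control. Its log2 fold change was 0.61 (SE 0.22, edgeR unadjusted p = 0.0266, adjusted p = 1.00).

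Cell type markers were read beside these levels, since interferon genes are expressed unevenly across blood cells. Of 12 markers of monocytes and macrophages, 11 averaged 10 CPM or more, and they summed to 8615 to 9359 CPM in Mt1ko samples, against 7639 to 10990 CPM in control samples. All 14 markers of T and NK cells, a source of interferon gamma, averaged under 1 CPM, and 5 of them were at 0, among them Nkg7 and Prf1. Of 10 markers of plasmacytoid dendritic cells, a source of type I interferons, 8 averaged under 1 CPM, and Siglech, a defining marker, had 3 counts in all. Tcf4, which other cells also express, averaged 56.3 ± 15.9 CPM in Mt1ko and 56.2 ± 6.75 CPM in control. Of 14 neutrophil markers 5 averaged 10 CPM or more, and they summed to 191.5 to 368.4 CPM in Mt1ko samples, against 227.1 to 402.5 CPM in control samples. Of 10 B cell markers 9 averaged under 1 CPM, as did 4 of 8 markers of conventional dendritic cells, 6 of 10 erythroid markers and 9 of 11 markers of stroma and endothelium. The part of these cells in the interferon genes was not tested.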

How the data were processed

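RNA from bone marrow was made into libraries with a stranded total RNA kit for small inputs, per the labels' protocols. Per the submitters' processing notes, Trimmomatic 0.35, RSEM 1.3.3 and the builds GRCm38 and mm10 were used. The aligner and the strandedness of the counting were not given in the sources used here. Counts per gene, whole and unnormalized, were deposited by the authors for 17 libraries and for 6 sums of them; each sum equalled its libraries in every gene. The 9 Mt1ko and 8 control libraries were grouped by title and each sum by its header.

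The counts of the 6 sums were fitted over all genes with edgeR 4.0.16, run in R 4.3.3 (low counts removed by filterByExpr, TMM, quasi-likelihood F test, group alone, Benjamini-Hochberg adjustment, threshold 0.05). TMM factors were 1.00 to 1.05, and 0.852 in Mt1ko 10-12. TMM scaling entered the CPM of sums but not those of libraries. Standard errors are the log2 fold change over the root of F. Lengths and coordinates came from GENCODE vM21 (GRCm38), and promoters from RefSeq. DESeq2 1.42.0 and other settings served as alternatives.

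Given with values in every sample were the 2 highest members of each role, the 5 highest and 5 lowest fold changes, and members whose groups did not overlap; of the pathway lists, the 2 highest genes and Ifnar1, Ifngr1, Ifnb1 and Ifng. A further gene of this rule is not reported here. Psme2, the other members given by fold change, and the cell type markers named lie outside this rule. The members and lists were chosen with earlier results of these data known.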

Additional observations from a re-analysis of the deposited data

Results flagged for a closer look

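In 14 of 62 sets of library values (1 gene in 1 group), the highest library stood far from the others by Dixon's 95% criterion. The criterion flags about 1 in 20 sets of normally distributed values by chance; its rate for skewed counts of scarce genes was not tested, and most of the 14 sets belong to such genes. Among the libraries labelled Mt1ko, Mt1 had 326.2 CPM in library 6, where the next highest library had 87.2 CPM. In library 10, Oasl1 had 15.5 CPM (next 1.45 CPM) and Ifit3 5.06 CPM (next 1.09 CPM). In library 11, Ifi47 had 21.9 CPM (next 4.50 CPM) and Oasl2 10.3 CPM (next 3.13 CPM). In library 16, Cxcl10 had 2.47 CPM (next 1.19 CPM) and Cmpk2 2.21 CPM (next 0.802 CPM).

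Among the control libraries, Irf1 had 26.1 CPM in library 15, where the next highest had 15.8 CPM. In library 9, Rsad2 had 5.26 CPM (next 1.82 CPM) and Ifit3 4.89 CPM (next 0.217 CPM). Usp18 had 8.58 CPM in library 7 (next 3.74 CPM). In library 2, Cxcl10 had 1.76 CPM (next 0.830 CPM) and Isg15 0.864 CPM (next 0.241 CPM). Oasl1 had 0.783 CPM in library 3 (next 0.357 CPM).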

How the results depend on the processing

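No interferon-stimulated gene was called under any of the alternatives run, which were 16 refits and an adjusted p threshold of 0.10. Of 444 values of the 29 members named by the rule under the refits, 38 had the other sign, in 14 members, and none was called. Over all genes, 1 was called under DESeq2, with 17 libraries entered singly, with library 6 left out and with libraries 6 and 10 to 12 left out, each time Mt1, with a log2 fold change of -1.84 (adjusted p = 8.03e-05), -1.90 (0.0145), -2.30 (0.0102) and -2.21 (0.0113) in that order. Also 1 gene, mt-Co3, was called with control 7-9 and Mt1ko 10-12 left out together, an alternative chosen after seeing the data. On leaving out each summed sample, the members' median log2 fold change ranged from -0.012 (without control 7-9) to 0.29, the number of members above 0 from 21 to 32, and Mt1 from -2.37 to -1.60. Where a member changed sign on leaving out a sample, its log2 fold changes ranged from -0.17 to 0.49 (Ifih1), -0.12 to 0.14 (Ddx58), -0.034 to 0.13 (Irf9), -2.75 to 1.25 (Ifit1), -0.87 to 0.37 (Ifit2), -0.13 to 3.75 (Ifit3), -0.35 to 0.20 (Oas1a), -0.80 to 0.42 (Cmpk2), -0.10 to 0.53 (Isg20), -0.35 to 0.30 (Gbp7), -0.024 to 0.47 (Psmb8) and -0.055 to 0.23 (Tap1). The sign also changed with 17 libraries entered singly (Ddx58 -0.014, Ifit2 0.011), with the second index as a covariate (Ddx58 -0.0024), with library 6 left out (Ddx58 -0.049), with libraries 6 and 10 to 12 left out (Irf9 -0.022, Ifit2 0.40, Ifit3 -0.026, Oas1a 0.15, Cmpk2 0.20, Gbp7 0.27, Sp100 0.060), and with control 7-9 and Mt1ko 10-12 left out (Irf9 -0.045, Ifit2 0.32, Cmpk2 0.14, Isg20 -0.21, Gbp7 0.050, Irgm1 -0.020). The cause was not tested. No paired analysis was possible because the Mt1ko and control libraries share no replicate number. Depth limits the 11 members under 1 CPM, and repeated PCR copies of a molecule could not be removed.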
